A study of Gallus gallus with 4 samples.

Results

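The outermost 5 Mb at each end of chicken chromosomes 1, 2, 3 and 5 held 914 transcription units (TUs), out of 8663 on these 4 chromosomes and 22884 in the whole assembly. A TU is a set of overlapping transcripts that the assembler joined under 1 gene ID, and the transcript with the highest FPKM stood for each (FPKM are fragments scaled to transcript length and to the total of mapped fragments). A TU belonged to an end when its midpoint lay within 5 Mb of the first TU start (the left end) or the last TU end (the right end) of its chromosome, so that the choice used position and no level. The other 7749 TUs of these chromosomes, the interior, served for comparison. The study profiled wild-type (WT) chicken oocytes at the lampbrush stage with strand-specific poly(A) RNA-seq, in 2 samples of an isolated single nucleus and 2 samples of ooplasm, each from a single oocyte. The deposited table is 1 de novo assembly of pooled reads, poly(A) libraries of the study joined with earlier total RNA of oocyte nuclei. Whether reads of the ooplasm entered the assembly is not given in the sources used here. The table holds no values per sample, so nucleus and ooplasm are not compared here and no value has a replicate. The TUs carry IDs and no gene names, so oocyte markers were not checked, and TUs are named by ID, with coordinates on the chicken assembly ASM2420605v2. The depth of the libraries is unknown. An FPKM of 1 corresponded to a mean coverage of 10.6 reads per base in the forward-strand run (IDs FORW) and 10.5 in the reverse-strand run (IDs REV).

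Lampbrush chromosomes are the extended meiotic chromosomes of growing bird and amphibian oocytes, in which chromatin loops carrying closely spaced RNA polymerases project sideways from a row of condensed chromomeres. A TU can occupy part of a loop, a whole loop or several, and its length and direction can be seen under the microscope as a thickening coat of nascent RNA. The chicken karyotype combines a few large macrochromosomes with many small, gene-dense microchromosomes, and genes on the small chromosomes tend to have short introns. Subtelomeres, the stretches next to the telomere repeats, are known in vertebrates for gene families and segments that recur at several chromosome ends.

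Members were unevenly spread over the 8 ends. Chromosome 1 had 101 TUs at its left end and 127 at its right end, chromosome 2 had 109 and 74, chromosome 3 had 122 and 82, and chromosome 5 had 147 and 152. Together the ends took up 7.63% of the sequence between the outermost TUs of these chromosomes and held 10.6% of their TUs. By run, 439 members were FORW and 475 REV, and 442 of the 914 (48.4%) were transcribed toward the nearer chromosome end.

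TUs at the chromosome ends were shorter than those of the interior. The median span, introns included, was 6.68 kb at the left and 6.90 kb at the right end of chromosome 1, 8.97 and 6.09 kb on chromosome 2, 11.3 and 11.2 kb on chromosome 3, and 6.50 and 11.7 kb on chromosome 5. The interior on the same side of the chromosome's midpoint gave, in the same order, 12.4, 11.3, 13.9, 13.1, 15.5, 11.9, 16.6 and 15.6 kb. The ends averaged 8.67 ± 2.42 kb (SD, n = 8 ends) and the same-side interior 13.8 ± 1.94 kb. The difference of -5.12 ± 2.70 kb was negative at 8 of 8 ends, from -10.1 kb at the left end of chromosome 5 to -0.70 kb at the right end of chromosome 3. An exact two-sided sign-flip permutation test over the 8 ends gave p = 0.00781, the smallest that the sign patterns of 8 ends allow, and 0.0195 after Benjamini-Hochberg adjustment over the 5 measures of this kind (density, span, intron length, single-exon share and level). Ends of 1 chromosome may not be independent, and the p-values measure the spread among ends of this 1 assembly. Among TUs of at least 5 kb the difference in median span was -2.51 kb with an adjusted exact p of 0.156. Pooled over the ends, the middle 50% of members spanned 3.53 to 22.3 kb around a median of 8.42 kb, against 5.30 to 30.3 kb around 13.4 kb in the interior. The shift held for both kinds of TU: the medians were 11.2 kb (ends) and 18.2 kb (interior) for multi-exon TUs, and 3.02 and 4.91 kb for single-exon TUs. Only 23 members (2.52%) reached 100 kb, against 366 interior TUs (4.72%).

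Introns were shorter at all 8 ends too. The median intron measured 0.646 and 0.714 kb at the left and right end of chromosome 1, 0.619 and 1.01 kb on chromosome 2, 0.660 and 1.02 kb on chromosome 3, and 0.452 and 0.842 kb on chromosome 5. The same-side interiors ranged from 0.909 to 1.25 kb. The means were 0.745 ± 0.197 kb and 1.10 ± 0.125 kb (SD, n = 8), a difference of -0.355 ± 0.192 kb, with an exact sign-flip p of 0.00781 and an adjusted p of 0.0195. The smallest gap was at the right end of chromosome 3 (-0.079 kb). Of the 5666 introns of the members 62.1% were shorter than 1 kb, against 46.3% of 39571 interior introns, and 4.01% against 6.69% were at least 10 kb long. Exons differed far less, with a median of 135 bp in members and 143 bp in the interior. The exonic length per TU was 3.25 kb in members and 5.05 kb in the interior. Over the whole assembly, which includes the microchromosomes, the median span was 10.6 kb and the median intron 0.786 kb.

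The ends were also denser in TUs. They held 20.2, 25.4, 21.8, 14.8, 24.4, 16.4, 29.4 and 30.4 TUs per Mb (chromosomes 1, 2, 3 and 5, left before right), against 16.6, 11.8, 15.8, 12.4, 20.1, 16.6, 23.2 and 23.8 in the same-side interior. Density was higher at 7 of 8 ends, and the exception was the right end of chromosome 3. The mean rose from 17.5 ± 4.50 to 22.9 ± 5.65 TUs per Mb (SD, n = 8), a difference of 5.30 ± 4.03 per Mb, with an exact sign-flip p of 0.0156 and an adjusted p of 0.0260. The right end of chromosome 1 stood out by 13.6 TUs per Mb, and without it the mean difference was 4.12 per Mb with an adjusted exact p of 0.0521. That adjusted p was also reached without any of 5 other ends (chromosome 1 left, both ends of chromosome 2, chromosome 3 left and chromosome 5 right). The mean difference in those 5 fits was 5.12 to 5.72 per Mb, close to that with all ends. A fit of 7 ends has fewer sign patterns than 1 of 8, so its smallest possible p is larger. Among TUs of at least 5 kb the difference in density was 1.42 per Mb, with an adjusted exact p of 0.266. TUs covered 41.8 ± 6.44% of the terminal and 46.0 ± 14.0% of the same-side interior sequence, a difference of -4.20 ± 11.5 percentage points over the 8 ends (adjusted exact p = 0.383). On chromosome 5, the smallest of the 4, TUs covered 47.4% of each end, below every interior 5 Mb window of that chromosome (51.2% to 73.8%).

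**Figure D1:**
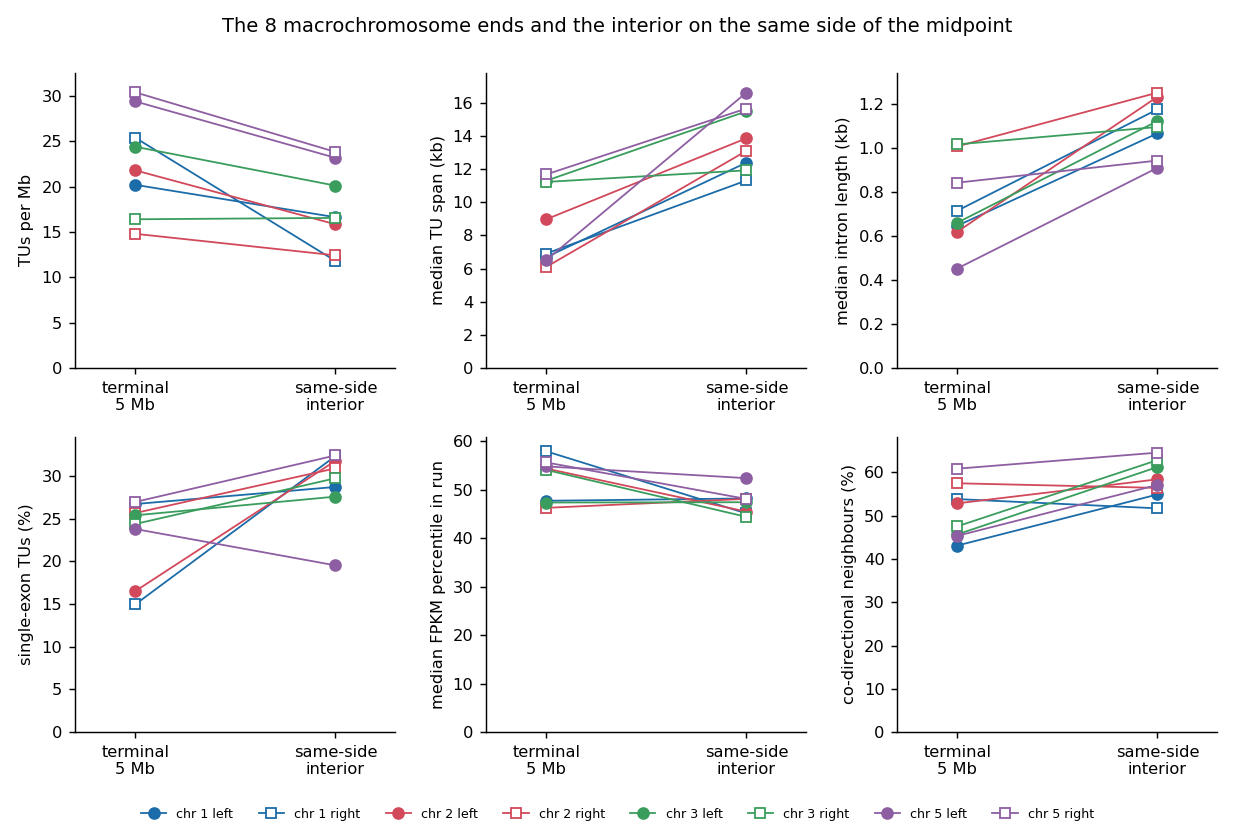
Each line joins the terminal 5 Mb of 1 chromosome end to the interior TUs on the same side of the chromosome's midpoint, for TUs per Mb, median TU span and median intron length in kb, share of single-exon TUs in percent, median FPKM percentile within the run and share of neighbouring TUs of at least 5 kb on the same strand in percent. Filled circles are left and open squares right ends, and no error bar is drawn because each point is 1 region of 1 assembly. Span and intron length were lower at all 8 ends, while the percentile was higher at 5.

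Fewer TUs lacked introns at the ends than in the interior of the same chromosomes. Single-exon TUs made up 210 of the 914 members (23.0%, Wilson 95% interval 20.4% to 25.8%) and 29.5% of the interior (28.5% to 30.5%), while the share over the whole assembly was 24.9%, within the members' interval. Such intervals cover counting error only. The share ran from 15.0% at the right end of chromosome 1 and 16.5% at the left end of chromosome 2 to 27.0% at the right end of chromosome 5. It was lower than in the same-side interior at 7 of 8 ends, with means of 23.1 ± 4.66% and 29.1 ± 4.25% (SD, n = 8), an exact sign-flip p of 0.0391 and an adjusted p of 0.0488. The exception was the left end of chromosome 5, at 23.8% against 19.5%. This result was the least stable of those past the threshold, since it passed it in only 1 of the 8 fits without an end and in 3 of 10 other settings. The median number of exons in multi-exon TUs was higher at 7 of 8 ends, 5.94 against 4.75 on average, with an adjusted exact p of 0.164.

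The level of a TU was read as the percentile of its FPKM among all TUs of its own run, because the forward and reverse runs were assembled separately. FPKM of pooled poly(A) and total RNA count accumulated as well as nascent RNA, so this is a level of RNA and not of transcription alone. The paper estimated nascent RNA otherwise, from the lower of intron and exon FPKM. TUs called active below are those of high FPKM. The median percentile was 47.7 and 57.9 at the left and right end of chromosome 1, 54.4 and 46.3 on chromosome 2, 47.4 and 54.1 on chromosome 3, and 54.8 and 55.6 on chromosome 5. The same-side interiors lay between 44.4 and 52.4. The mean was 52.3 ± 4.44 at the ends and 47.4 ± 2.52 in the interior (SD, n = 8), a difference of 4.87 ± 5.52 that was positive at 5 of 8 ends and missed the threshold (exact sign-flip p = 0.0625, adjusted p = 0.0625). The median FPKM was 2.31 in members and 1.77 in the interior. At equal span the members lay higher in each of the 7 span classes compared, without a test: TUs of 2 to 5 kb had a median percentile of 32.0 against 20.8 in the interior, those of 5 to 10 kb 53.4 against 39.5, and those of 10 to 20 kb 62.8 against 52.8. In the shortest class, 1 to 2 kb, the medians were 17.5 and 16.3. Members were also less often single-exon in 7 of 7 of these classes, for example 31.2% against 53.2% at 2 to 5 kb, and single-exon TUs had low levels in both regions (median percentiles of 22.3 at the ends and 23.6 in the interior, against 62.6 and 59.6 for multi-exon TUs).

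TUs of high level were present at 7 of the 8 ends. Of the members 99 (10.8%) were in the top 10% of their run, a threshold of 21.4 FPKM in the forward and 20.3 FPKM in the reverse run, where the background was 10% over the whole assembly and 8.96% over the 4 chromosomes. The share was near that background. The counts were 12 and 17 on chromosome 1, 11 and 0 on chromosome 2, 16 and 9 on chromosome 3, and 20 and 14 on chromosome 5. The share was higher than in the same-side interior at 7 of 8 ends, with means of 10.3 ± 4.45% and 8.68 ± 1.23% (SD, n = 8) and an adjusted exact p of 0.383. The right end of chromosome 2 went the other way with 0 of 74 TUs. An upper limit of 3 counts in 74 would be a share of 4.05%. Such a limit covers counting error only and takes neighbouring TUs as independent.

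Each end was also set among the 5 Mb windows of its own chromosome, 38 interior windows on chromosome 1, 28 on chromosome 2, 20 on chromosome 3 and 9 on chromosome 5. For intron length, the left ends of chromosomes 2, 3 and 5 were below every interior window, and at both ends of chromosome 1 and the right end of chromosome 2 only 1 window was lower. The right end of chromosome 3 was less extreme, with 4 of 20 windows lower. That of chromosome 5 was mid-range, with 4 of 9 windows lower and 0.842 kb against a window median of 0.941 kb. For density, both ends of chromosome 5 exceeded all 9 windows, and from 1 to 2 windows were denser than either end of chromosome 1 or the left ends of chromosomes 2 and 3. By contrast, 14 of 28 windows were denser than the right end of chromosome 2 and 13 of 20 than the right end of chromosome 3. For the FPKM percentile, 17 of 38 windows were above the left and 6 above the right end of chromosome 1, 4 of 28 and 14 of 28 on chromosome 2, 8 of 20 and 1 of 20 on chromosome 3, and 3 of 9 and 1 of 9 on chromosome 5. The right end of chromosome 3, of middling density, was thus among the highest of its chromosome in level.

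**Figure D2:**
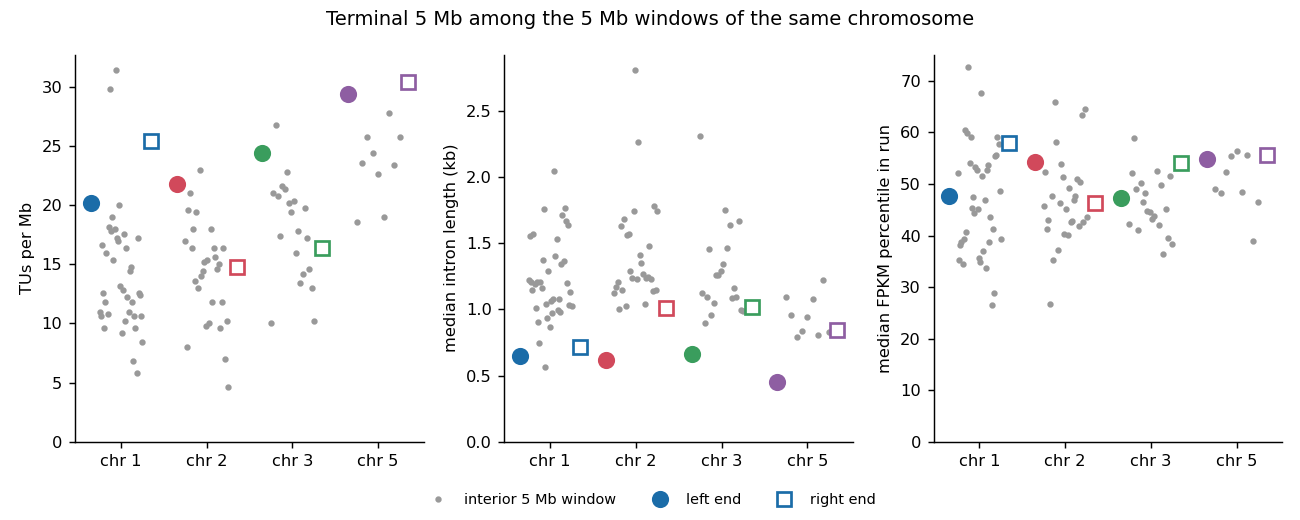
TUs per Mb, median intron length in kb and median FPKM percentile of the terminal 5 Mb (filled circles, left ends; open squares, right ends) and of each interior 5 Mb window (grey points) on chromosomes 1, 2, 3 and 5. Introns at the left ends of chromosomes 2, 3 and 5, at 0.619, 0.660 and 0.452 kb, lay below all interior windows, whereas the percentiles of the ends lay among those of the windows.

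The terminal 5 Mb were not uniform. The outermost 1 Mb of the 8 ends held 306 of the 914 members, and the next 4 Mb held 608. This division was chosen after the values were seen, so no p-value is given for it or for regions defined by it. Density in the outermost 1 Mb was 38.3 ± 17.2 TUs per Mb (SD, n = 8; 18 at the right end of chromosome 3 to 70 at the left end of chromosome 5), against 19.0 ± 4.94 in the next 4 Mb, and was higher at 8 of 8 ends. The median intron fell from 0.922 ± 0.238 kb in the 4 Mb to 0.549 ± 0.220 kb in the outermost 1 Mb, again at 8 of 8 ends, and reached 0.201 kb at the left end of chromosome 5. The median span was 6.37 ± 2.44 kb against 10.4 ± 2.00 kb and was shorter at 7 ends.

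Levels in this outermost stretch were lower and far more scattered. The median percentile was 41.8 ± 15.7 in the outermost 1 Mb and 55.4 ± 4.17 in the next 4 Mb. It was lower outermost at 6 of 8 ends, down to 21.7 at the right end of chromosome 2 and 27.9 at the left end of chromosome 3, and higher at the left end of chromosome 2 (56.6 against 49.7) and the right end of chromosome 3 (66.6 against 49.9). Without the outermost 1 Mb, the remaining terminal TUs differed from the same-side interior by 8.02 percentiles, by -3.34 kb in span, by 1.45 TUs per Mb in density and by -0.177 kb in median intron, against 4.87, -5.12, 5.30 and -0.355 with it. Within 2 Mb of the ends the percentile difference was -2.20. The medians per end rest on 18 to 70 TUs in the outermost 1 Mb and 51 to 114 in the next 4 Mb. Medians of fewer TUs vary more by counting alone, and its part in the wider scatter was not tested. TUs that carried the strand opposite to that of their run made up 5.88% of the outermost 1 Mb and 3.95% of the next 4 Mb, and their part in the contrast between these zones was not tested.

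**Figure D3:**
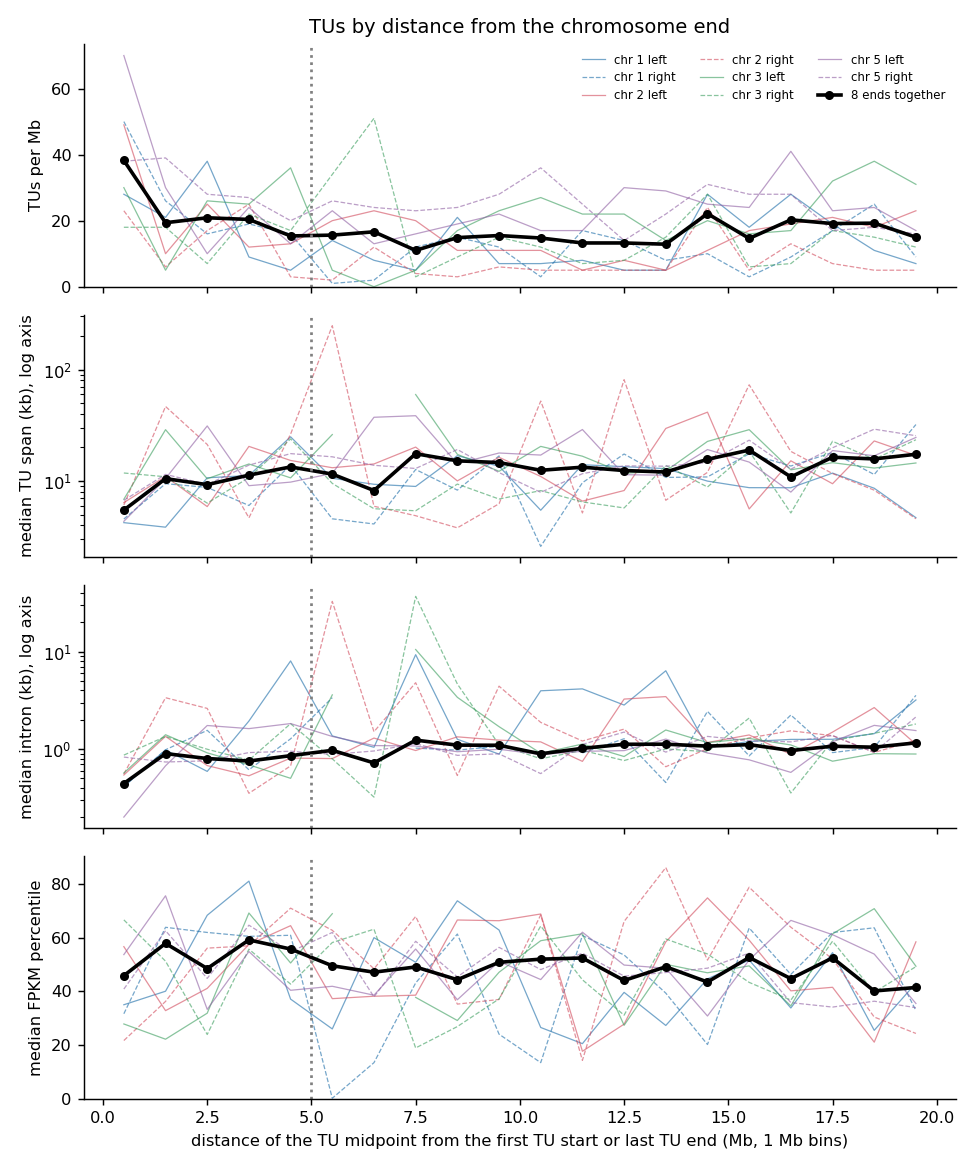
TUs per Mb, median TU span in kb, median intron length in kb (both on log axes) and median FPKM percentile in 1 Mb bins up to 20 Mb from the outermost TU. Thin lines are single ends (solid, left; dashed, right), the black line with points takes the 8 ends together (the mean for density, pooled TUs or introns for the medians), and the dotted line marks 5 Mb. Density of the 8 ends was 38.3 TUs per Mb in the outermost bin and 19.4 in the next.

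The most active members were multi-exon TUs, as were 704 of all 914 members. The 10 with the highest percentile spanned 2.40 to 16.3 kb and lay 0.526 to 3.46 Mb from the end. Of these 10, 2 lay within 1 Mb of it, as did 306 of the 914 members. The median span was 8.42 kb over all members and 11.2 kb over multi-exon members, so these 10 were not unusually short. FORW.3651 (chromosome 3, 108894896 to 108905901, 8 exons) had 209.5 FPKM and REV.1449 (chromosome 2, 2382957 to 2395110, 5 exons) had 207.8 FPKM. They were followed by FORW.40 near the left end of chromosome 1 (148.3 FPKM, 11 exons), FORW.1512 and FORW.1505 near its right end (129.5 and 120.7 FPKM), REV.3500 (123.6 FPKM), FORW.5354 near the right end of chromosome 5 (120.9 FPKM) and REV.2547 near the left end of chromosome 3 (113.5 FPKM, 14 exons). REV.1387 near the right end of chromosome 1 (94.8 FPKM) and REV.4569 near the left end of chromosome 5 (91.6 FPKM) had 13 exons each. REV.3500 lay 379 bp beyond the 3′ end of FORW.3651, so that a pair of the most active terminal TUs faced each other tail to tail. Of these 10 TUs 7 overlapped a TU of the other strand and 7 were transcribed toward the chromosome end. The share with such an overlap averaged 38.8% over the 8 ends, and 48.4% of all members ran toward the nearer end. At FORW.40 and REV.1387 an overlapping TU, REV.46 and FORW.1521, carried the strand opposite to that of its run, so the overlap is uncertain there. This check covers multi-exon TUs only. FORW.1505 overlapped the single-exon REV.1376 (1.11 FPKM), so the strand of that partner was not checked. At the right end of chromosome 2 the most active TU, FORW.2589 (chromosome 2, 149731393 to 149754945, 7 exons), reached 15.96 FPKM and the percentile 86.4, lower than the leading TU of every other end.

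Long TUs were few but included some of high level. REV.52 near the left end of chromosome 1 spanned 469 kb (3334514 to 3803868) with 18 exons, a longest intron of 160 kb and 23.5 FPKM, and was transcribed toward the chromosome end. FORW.4729 near the left end of chromosome 5 spanned 288 kb (3.93 FPKM), REV.3509 and FORW.3642 near the right end of chromosome 3 spanned 274 and 261 kb (9.03 and 7.40 FPKM), and REV.2490 near the right end of chromosome 2 spanned 192 kb with 38 exons (2.78 FPKM). The longest TU was shorter at the other ends, 158 kb for FORW.1502 (chromosome 1 right), 116 kb for FORW.1548 (chromosome 2 left) and 73.0 kb for REV.5184 (chromosome 5 right). The left end of chromosome 3 held 4 of the 5 members with most exons: REV.2535 with 80 exons over 141 kb, FORW.2674 with 52, and FORW.2644 and REV.2551 with 47 each. FORW.1567 at the left end of chromosome 2 was the remaining one, with 55 exons in only 26.8 kb and 29.7 FPKM.

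The 5 Mb limit itself fell in different surroundings. FORW.2677, an 839 kb TU of 19 exons and 5.08 FPKM, began inside the limit at the left end of chromosome 3 and was left out because its midpoint lay at 5.31 Mb. The nearest member inside that limit, REV.2571 (11.4 kb, single-exon, 1.41 FPKM), lay within its span. At the left end of chromosome 5 the neighbours of the limit were REV.4595 inside (25.5 kb, 1.51 FPKM) and FORW.4748 outside (1.03 kb, 0.612 FPKM), and at the right end of chromosome 1 FORW.1464 inside (52.7 kb, 3.37 FPKM) and FORW.1463 outside (4.58 kb, 0.168 FPKM). At the right end of chromosome 2 the nearest member inside, REV.2473 (6.10 kb, 5.64 FPKM), lay at 4.31 Mb and the nearest outside, REV.2472 (15.3 kb, 2.14 FPKM), at 5.26 Mb. The nearest pairs at the other 4 ends had 0.440 and 0.347 FPKM (FORW.48 and FORW.45, chromosome 1 left), 14.7 and 4.52 FPKM (FORW.1578 and FORW.1577, chromosome 2 left), 0.534 and 11.8 FPKM (REV.3486 and REV.3485, chromosome 3 right), and 2.16 and 4.94 FPKM (REV.5172 and REV.5171, chromosome 5 right).

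The ends of these chromosomes began with a recurring arrangement of TUs. At 7 of the 8 ends the outermost multi-exon TU ran toward the chromosome end and had, head to head within 200 bp, a TU running inward. Examples are REV.1 (chromosome 1, 7589 to 13539, 4 exons, 3.07 FPKM) with FORW.1 (13570 to 31691, 17 exons, 3.31 FPKM), 30 bp apart, and at the other end of that chromosome FORW.1522 (200025006 to 200031907, 5 exons, 8.31 FPKM) with REV.1405 (200008658 to 200024825, 18 exons, 1.13 FPKM), 180 bp apart. On chromosome 2, REV.1409 (11.1 FPKM) and FORW.1523 (2.16 FPKM) were 139 bp apart at the left end, while FORW.2602 (6.13 FPKM) and REV.2514 (1.62 FPKM) overlapped by 167 bp at the right end. On chromosome 3, REV.2499 (4.96 FPKM) and FORW.2610 (1.99 FPKM) overlapped by 138 bp, and FORW.3678 (10.2 FPKM) and REV.3528 (5.16 FPKM) were 157 bp apart. At the left end of chromosome 5, REV.4520 (9.07 FPKM) and FORW.4679 (2.39 FPKM) were 92 bp apart, with the single-exon FORW.4677 (1.42 kb, 0.612 FPKM) as the outermost TU.

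The pairs had several lengths in common. The outward TU was 5.00 to 7.09 kb long in the 7 pairs, and its level exceeded that of the inward TU in 6 of the 7, the exception being REV.1 and FORW.1. Such a length was not particular to these ends, and it recurred in outward outermost TUs at many ends of other chromosomes. For example, the outermost multi-exon TU, also running outward, measured 5.86 kb at the left end of chromosome 17 and 5.97 kb at that of chromosome 19. Other ends differed, with 1.39 kb at the right end of chromosome 27 and 377 kb at the left end of chromosome 28. The intron nearest the start of the inward TU measured 1019, 1012, 1011, 1009, 1009, 1016 and 1028 bp. The range of these 7 values, set by the pairs themselves, held 21 of 5462 interior multi-exon TUs (0.384%). The intron nearest the start of the outward TU was 1151 bp in REV.1, FORW.1522 and FORW.2602, 1256, 1262 and 1255 bp in REV.1409, REV.2499 and FORW.3678, and 1477 bp in REV.4520. The right end of chromosome 5 was the exception. Its outermost TU was the single-exon FORW.5390 (2.19 kb, 0.695 FPKM), its outermost multi-exon TU FORW.5398 had 1.08 FPKM, and the nearest inward multi-exon TU, REV.5258, began 94095 bp away. On the other chromosomes, a multi-exon pair head to head within 200 bp opened 1 of 72 ends, the left end of chromosome 22, and its inward TU (FORW.9389) did not have the intron length described. The limit of 200 bp was set after the pairs were seen. Just past it lay head-to-head pairs at chromosome 16 right (227 bp), chromosome 38 left (310 bp) and chromosome 25 left (336 bp). At chromosome 37 right the gap was -357 bp, an overlap. None of their inward TUs had the intron length described. At chromosome 6 left, where the outermost multi-exon TU ran inward, the next one, FORW.5400, had a first intron of 1018 bp. At the right end of chromosome Z, FORW.11419 and REV.11463 lay head to head 342 bp apart, and the intron nearest the start of REV.11463 measured 1013 bp, so the arrangement was not limited to the 4 chromosomes. In the interior of the 4 chromosomes 165 of 1229 head-to-head neighbours (13.4%) were that close. The pairs were found by looking at the outermost TUs, so these are counts without a test.

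**Figure D4:**
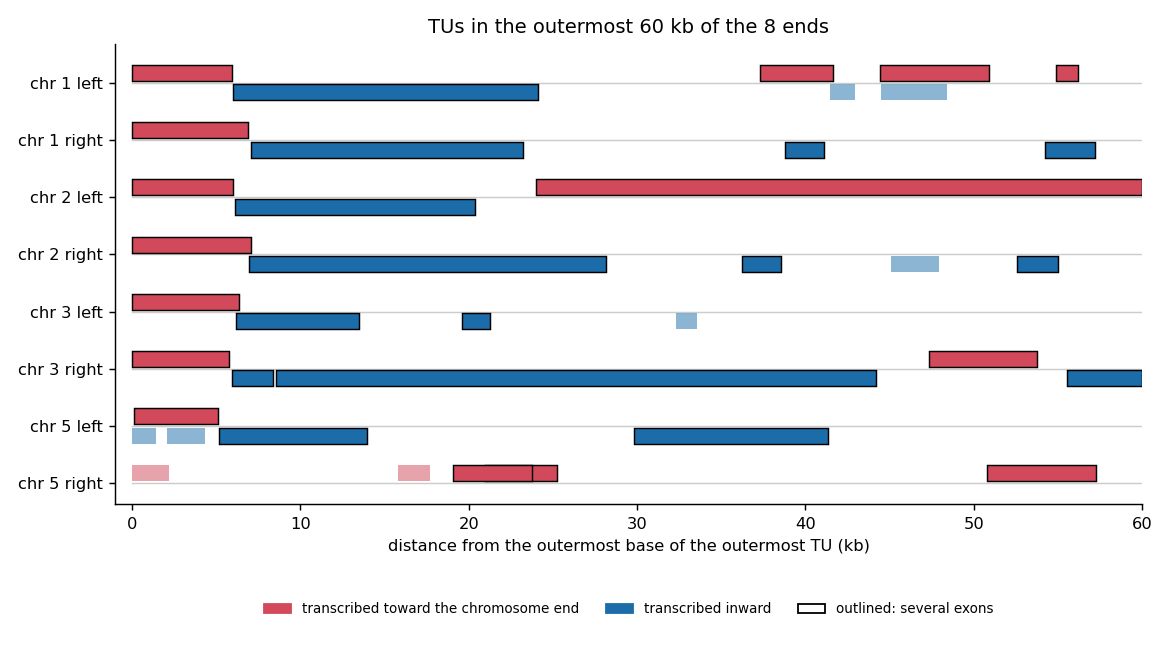
TUs within 60 kb of the outermost TU base at the 8 ends, drawn to scale by distance in kb. Red bars above a line run toward the chromosome end, blue bars below it run inward, and outlined bars have several exons. At 7 ends an outlined red TU of 5.00 to 7.09 kb met a blue TU head to head within 200 bp, and the right end of chromosome 5 lacked this pair.

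Of the 7 inward TUs of these pairs 4 (FORW.1, REV.1405, FORW.1523 and REV.2514) shared a series of exon lengths, and FORW.2610, REV.3528 and FORW.4679, with 2 to 4 exons, lacked it. In the direction of transcription, 11 consecutive exons of 72, 123, 78, 82, 150, 103, 133, 83, 108, 146 and 202 bp (1280 bp in all) occurred without a difference in FORW.1, REV.1405, FORW.1523 and REV.3527, the last being no TU of a pair but the TU next to REV.3528 at the right end of chromosome 3 (112313824 to 112349458, 39 exons, 5.80 FPKM). REV.2514 had 10 of the 11, with 215 bp in place of 103 bp. Introns within the series measured 232 to 581 bp in REV.1405, FORW.1523 and REV.3527, 234 to 581 bp in FORW.1 and 234 to 540 bp in REV.2514. A run of at least 5 consecutive lengths was found in 10 TUs of the whole assembly, 5 of them at these ends, from whose TUs the series was taken, and 0 in the interior of the 4 chromosomes. The others were REV.11378 on chromosome Z, which had all 11 lengths without a difference 5.97 Mb from the last TU end, and, with runs of 5 or 6 lengths, REV.11210 and REV.11232 on the same chromosome, FORW.7131 on chromosome 11, which lay 34.8 kb from the first TU and also ran inward, and REV.9536 on chromosome 24. The 10 TUs had 0.588 to 5.80 FPKM, with a median of 1.57. Only lengths were compared, not sequences. TUs that are copies of each other would share reads, and how reads that match several places were counted is not given in the sources used here, so the level of each of these TUs is uncertain.

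**Figure D5:**
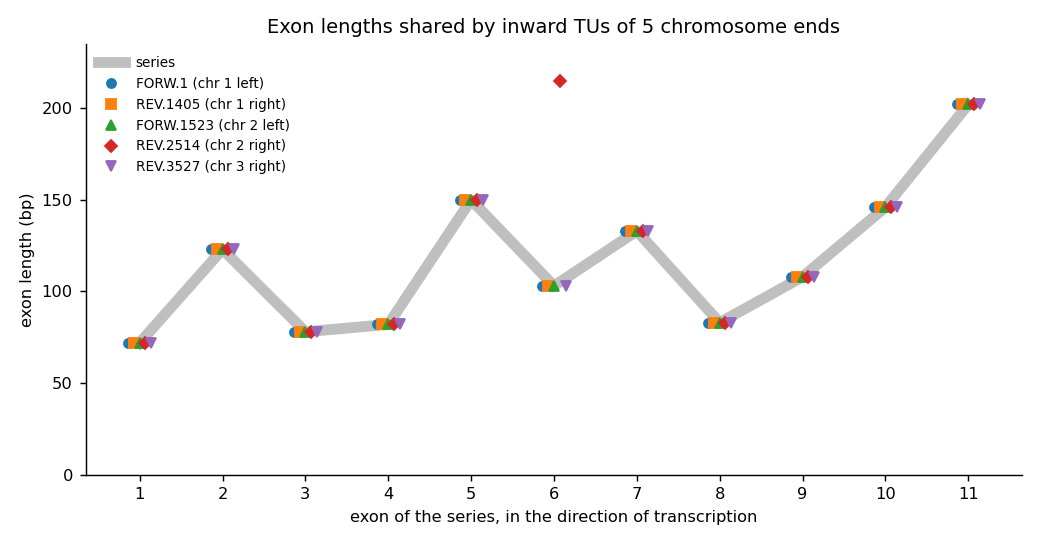
Length in bp of 11 consecutive exons, numbered in the direction of transcription, in the 5 inward TUs of the chromosome ends that share the series (points, shifted sideways for visibility; grey line, the series). All lengths coincide except 215 bp in place of 103 bp for the sixth exon in REV.2514.

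Behind the pairs, some ends continued with long rows of weak TUs in the same direction. At the right end of chromosome 1, 17 consecutive REV TUs, with REV.1405 as the outermost, ran inward over 199615388 to 200024825 with a median span of 3.40 kb and a median of 0.484 FPKM. At the left end of chromosome 3, 13 FORW TUs ran inward (17343 to 237786, median 2.72 kb and 0.508 FPKM), and at the right end of chromosome 2, 10 REV TUs did so (151568581 to 152106007, median 3.66 kb and 0.442 FPKM). The longest same-strand rows of the other 5 ends had 5 to 10 TUs. Row lengths of the interior are not given here, so these lengths have no comparison. Over neighbouring pairs of TUs of at least 5 kb, the share on the same strand was 50.8 ± 6.39% at the ends against 58.4 ± 4.28% in the same-side interior (SD, n = 8; lower at 6 of 8 ends, exact p = 0.0313, adjusted p = 0.164). Stretches without any TU were also present. The largest measured 632 kb at the left end of chromosome 3 (1191059 to 1822907), 521 and 476 kb at the ends of chromosome 2, 518 and 417 kb on chromosome 1, 284 kb at the right end of chromosome 3 and 363 and 168 kb on chromosome 5, and only the right end of chromosome 5 had none of at least 200 kb.

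Many terminal TUs overlapped a TU assembled on the other strand. The share of TUs that overlapped a TU of the other strand averaged 38.8 ± 5.94% at the ends and 34.8 ± 5.94% in the same-side interior (SD, n = 8; higher at 6 of 8 ends, adjusted exact p = 0.182). At the left end of chromosome 3 it was 48.4%, above all 20 interior windows. The strand itself was less certain for some: 42 members (4.60%) carried the strand opposite to that of their run, against 68 interior TUs (0.878%) and 510 in the assembly (2.23%), and 64 members against 116 interior TUs shared an intron of identical coordinates with a TU of the other run. Without the TUs that shared such an intron, the overlap difference was -0.34 percentage points (adjusted exact p = 0.867), while span, intron length and density kept their direction and remained past the threshold, at -4.94 kb, -0.322 kb and 4.01 TUs per Mb. Both of these strand checks cover multi-exon TUs only. Overlaps with single-exon TUs, such as FORW.1506 (0.385 FPKM) within REV.1377 (68.7 FPKM), were not tested. The mean number of transcripts per TU was 1.70 at the ends and 1.77 in the interior (adjusted exact p = 0.383). The median exonic share of the span of a multi-exon TU averaged 38.2% over the ends and 36.3% over the same-side interiors (adjusted exact p = 0.469).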

How the data were processed

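Adapters were cut with cutadapt, reads were aligned with HISAT2 to the assembly ASM2420605v2, and files were split by direction of transcription with duplicates marked in SAMtools by the authors. They pooled the unique reads of all experiments and assembled each direction with StringTie 2.2.2. Per the file headers and methods, transcripts had at least 1000 bp, a junction coverage of 5, an isoform fraction of 0.05, and a coverage of 1.2 (multi-exon) or 3.5 (single-exon), and reads up to 300 bp apart were joined. The stricter minimum for single-exon transcripts bears on the single-exon share, and joining bears on spans. Values used were the deposited coordinates and the FPKM and coverage that the authors' assembler gave per transcript, other units of the file being left out. Whether unique also meant mapped to 1 place is not given in the sources used here. The deposited file holds 40714 transcripts in 22884 TUs.

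TUs were placed at an end by their midpoint, and the 8 terminal regions were each compared with interior TUs on the same side of the chromosome's midpoint, so that no TU was a member of more than 1 region. Covered sequence was the exception, since a TU that crossed a limit added to the regions on both sides of it. Mean differences over the ends were tested with the exact two-sided sign-flip permutation test, with Benjamini-Hochberg adjustment over 5 main and over 7 further measures and a threshold of 0.05. The test was checked on simulated data for span only, with TUs placed at random positions. Likeness among neighbouring TUs was therefore not part of that check. Percentiles were taken within a run, since FPKM were scaled separately in FORW and REV. Direction was taken from the run. Named TUs were, per end, the outermost, the one with the highest percentile, the longest, and those nearest the 5 Mb limit on either side, and, over the ends, the 10 most active, the 5 longest and the 5 with most exons. The head-to-head pairs, the exon series, the same-strand rows and the 1 Mb zone were chosen after their values were seen. The members and lists were chosen with earlier results of these data known. Alternatives were another limit, interior, TU filter, representative transcript, summary or unit, chromosome 4 added, each end left out, and 3 filters added after seeing the data. Python 3.11.15, numpy 2.4.6 and scipy 1.17.1 were used. No sequence was printed, since no genome of this build was used here.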

Additional observations from a re-analysis of the deposited data

Results flagged for a closer look

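The share of TUs of high level (the top 10% of their run) at the right end of chromosome 2 lay far from that of the other 7 ends. It was 9.17 percentage points below the same-side interior (a difference of -9.17327 before rounding), with 0 of 74 TUs, while the other ends were above theirs. The gap to the nearest other end was 0.784 of the whole range, against a critical value of 0.526 for 8 values. Of the 12 measures, 1 was singled out in this way, and chance alone singles out about 1 in 20 groups. Among the 28 interior 5 Mb windows of chromosome 2, 25 had a higher share and 3 were also at 0. The same end had the lowest density of the 8 (14.8 TUs per Mb), the shortest median span (6.09 kb) and a median percentile of 46.3.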

How the results depend on the processing

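The shorter span and shorter introns of the ends kept their direction in every setting tried and their side of the threshold in most. With TUs of at least 5 kb, the differences were 1.42 TUs per Mb for density, -2.51 kb for span and -7.97 points for the single-exon share, all no longer past the threshold, 6.25 for the percentile (now past it), -4.22 points for exonic share and 0.0113 for transcripts per TU (both turned in sign). With TUs at or above the median FPKM, they were -0.298 kb for introns and -1.998 points for single-exon share (lost), and 0.443 points for covered sequence (turned). With a limit of 2 Mb, the percentile difference was -2.20 and that of exons -0.125 (both turned). With a limit of 10 Mb, density differed by 0.957 per Mb and the single-exon share by -5.0003 points (both lost), and exonic share by -0.21 points (turned). With the longest transcript of a TU, the single-exon share gave -5.51 points (lost) and the percentile 5.32 (gained). Against the interior of the whole chromosome the percentile difference of 4.90 passed the threshold, and with chromosome 4 added those of 5.61 for the percentile, 1.25 for exons and -6.90 points for same-strand neighbours did. The cause of these shifts was not tested.

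Of the filters added after seeing the data, leaving out the outermost 1 Mb gave 1.45 per Mb for density, -0.177 kb for introns, -4.11 points for single-exon share, 8.02 for the percentile and -4.82 points for exonic share (turned in sign). Since that stretch was singled out by its values, these are values without a test. Without TUs on the strand opposite to their run, the single-exon share gave -5.29 points (lost) and the percentile 6.51 (gained). Without TUs sharing an intron with the other run, single-exon share gave -4.93 points (lost) and overlap -0.34 points (turned).

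Leaving out each end in turn gave 4.12 to 6.08 per Mb for density, past the threshold in 2 of 8 fits, and -7.56 to -4.47 points for single-exon share, past it in 1 of 8. Span stayed between -5.75 and -4.41 kb and introns between -0.394 and -0.318 kb, past it in 8 of 8. Each of these fits has fewer sign patterns than that of 8 ends, so a lost threshold need not mean a smaller difference. With the chromosome as the unit, 4 values cannot give an exact p below 0.125, so no test was run. No paired analysis was possible because the table holds 1 pooled assembly without columns per sample. The depth per library is unknown, so TUs near the assembler's minimum coverage may be incomplete, which limits statements on weak TUs.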

Other observations

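The direction of the outermost TU was also read on the other chromosomes, without a test. The outermost multi-exon TU ran toward the chromosome end at 70 of 80 ends of 40 chromosomes, at 8 of 8 ends of chromosomes 1, 2, 3 and 5 and at 62 of 72 others. Counting single-exon TUs too, it did so at 69 of 80 ends and at 7 of those 8. Among all 914 members 48.4% ran toward the nearer end. Of the 10 TUs of the assembly that held at least 5 consecutive lengths of the exon series, 6 lay within 100 kb of the first or last TU of a chromosome, and all 6 ran inward. The series was taken from inward TUs of the ends studied here, and 5 of the 6 lie at those ends. Their place and direction thus came with that choice. The remaining TU is FORW.7131 on chromosome 11.

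Pooled over the ends, single-exon TUs were shorter and a smaller share of TUs in the outermost 1 Mb than in the next 4 Mb. By end, the share was lower outermost at 5 of 8. In the outermost 1 Mb 57 of 306 TUs (18.6%, Wilson 95% interval 14.7% to 23.4%) had no intron, and in the next 4 Mb 153 of 608 did (25.2%, 21.9% to 28.8%). Their median span was 2.55 kb in the outermost 1 Mb and 3.46 kb in the next 4 Mb. Of the 1627 introns of the outermost 1 Mb 74.9% were shorter than 1 kb, against 57.0% of 4039 in the next 4 Mb.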
